A study of Mus musculus with 6 samples.

Results

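Interferon-stimulated genes were measured in the epithelium on the surface of the mouse ovary, in cells sorted as EGFP-high and as EGFP-low. The list held 43 genes of interferon signalling and of the antiviral response it induces. Members were taken by gene symbol from the array annotation, with the brightest probe set standing for a gene, and 39 of the 43 had a probe set under their own symbol, out of 22180 named genes. Gbp2, Dtx3l and Oas1a were found only on probe sets shared with another symbol, and the annotation lists no probe set for Ifi44. These 4 were left out of the counts.

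The 2 groups were EGFP-high and EGFP-low cells, sorted from female Lgr5-eGFP-CreERT2 mice of 8 to 12 weeks that had no treatment. Both groups carry the same reporter allele, in which EGFP marks expression of the Lgr5 locus, so neither is a wild-type control. Each had 3 Affymetrix Mouse Gene ST 2.0 arrays with cells of 8 mice pooled per array. The submitters call the arrays of a group technical replicates, so p-values and intervals reflect array-to-array spread, possibly technical, and not the spread between animals. The RNA came through a pico-scale NuGEN amplification.

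Lgr5 itself, which checks the labels, read 8.996, 8.97 and 8.94 on the EGFP-high arrays, against 7.84, 7.76 and 8.01 on the EGFP-low arrays (log2). Surface epithelium markers were present, with 1 of 21 below the median of all probe sets on every array. The 6 deposited columns are not 6 separate readings. In all 41345 probe sets EGFP-high array 2 equalled the mean of EGFP-high arrays 1 and 3, and EGFP-low array 1 was a fixed combination of EGFP-low arrays 2 and 3 and EGFP-high arrays 1 and 3. The columns hold 4 independent dimensions. Differences were therefore tested in limma with the array set that these relations imply as a further term: EGFP-low 1 with EGFP-high 1, EGFP-low 2 and 3 with EGFP-high 3, and EGFP-high 2 alone. The sets were inferred from the values and stand in no label. Intervals are 95% limits from that fit.

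Interferons are secreted proteins, and cells release those of type I on sensing foreign or misplaced nucleic acid. Type I interferons bind the receptor chains Ifnar1 and Ifnar2, and interferon gamma binds a receptor that includes Ifngr1. Both act through JAK kinases and STAT factors. Stat2 and Irf9 are parts of the complex ISGF3, which binds the interferon-stimulated response element in the promoters of its targets. The induced proteins sense viral RNA, block entry, translation or release of viruses, and restrain the response itself. Epithelia keep a low level of many of these transcripts without infection.

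Most interferon-stimulated genes read higher in the EGFP-high cells, by modest amounts. Of 39 measured members, 32 differed by more than 0 (82.1%, against 53.8% of all named genes), with a median difference of 0.34 on the log2 scale (EGFP-high minus EGFP-low), where the median of all named genes was 0.02. With genes of below-median mean brightness left out, the medians were 0.37 for 32 members and 0.10 for all 11090 genes. The 39 members ranged from −0.49 for Oas3 to 1.13 for Usp18. At 1.5-fold or more, 6 members were higher (15.4%, against a background of 2.19%) and 0 were lower (background 2.7%). These 6 were Usp18, Isg15, Rtp4, Mx2, Stat2 and Irf9. In sorted cells of this kind, a larger share of responding cells and more RNA per cell cannot be told apart.

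None of the 39 members passed the adjusted threshold of 0.05 in the array-set fit, in which 1 of 22180 genes passed (0.00451%). The lowest adjusted p of a member was 0.751 (limma, Benjamini-Hochberg over all named genes). At an unadjusted p under 0.05 the same fit had 8 members higher (20.5%, against 3.04% of all genes) and 0 lower (background 2.89%). With group as the only term, limma placed 9 members past the adjusted threshold, all higher (23.1%, against 3.9% of all genes), and 0 lower (2.77%). That fit counts residual degrees of freedom that the linked columns do not hold. Its 9 members were Usp18, Isg15, Irf9, Irf1, Parp12, Rtp4, Ifit2, Ifitm3 and Ifi27. Values below are given as measured differences, since no single member passed the array-set test.

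**Figure D1:**
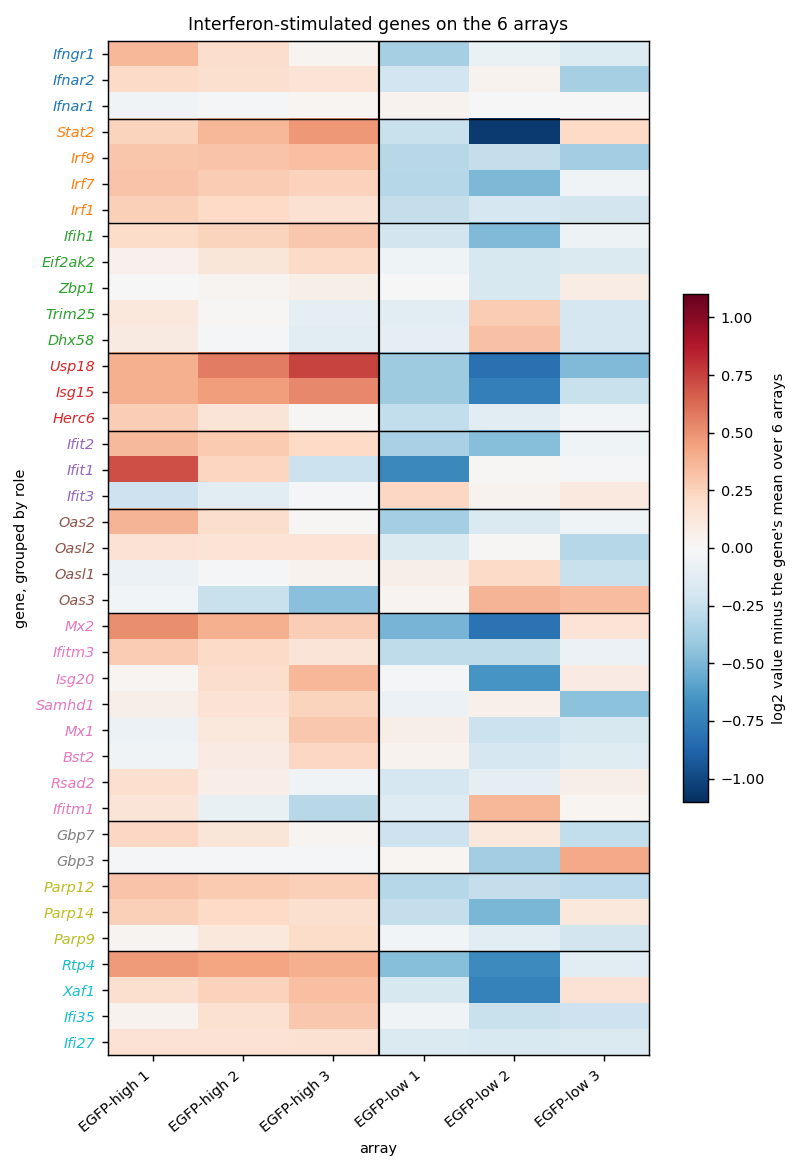
Log2 value of each of the 39 interferon-stimulated genes (rows, grouped and coloured by role) on the 6 arrays (columns), minus the mean of that gene over the arrays. Most rows are red on the 3 EGFP-high arrays and blue on the EGFP-low arrays, with Oas3 and Ifit3 the other way round and the palest rows (Ifnar1, Zbp1) near 0.

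The promoters of the members were searched for the interferon-stimulated response element, spelled as GAAA, then 2 bases of any kind, then GAAA, on both strands, in windows from 250 bases before to 50 after each gene's annotated start (RefSeq, GRCm38.p6). Of the 33 members with a window, 14 held it (42.4%), against 3.99% of 27025 genes and 3.44% of 32851 windows. The 12 measured members that held it had a median difference of 0.26, with 9 above 0, and the 17 that lacked it had a median of 0.36, with 14 above 0. The promoters below are those of the 5 measured members with the largest differences of either sign among those that held the motif, shown to set the same element beside unlike differences. Capitals mark the motif on either strand, and adjoining matches can overlap.
Isg15 (chr4:156200769-156201068, minus strand): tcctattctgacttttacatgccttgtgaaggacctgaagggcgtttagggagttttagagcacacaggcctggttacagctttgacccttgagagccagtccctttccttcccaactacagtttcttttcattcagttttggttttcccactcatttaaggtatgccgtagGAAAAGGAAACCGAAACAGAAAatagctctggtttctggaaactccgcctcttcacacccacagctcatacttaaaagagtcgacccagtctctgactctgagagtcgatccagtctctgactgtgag
Stat2 (chr10:128270248-128270547, plus strand): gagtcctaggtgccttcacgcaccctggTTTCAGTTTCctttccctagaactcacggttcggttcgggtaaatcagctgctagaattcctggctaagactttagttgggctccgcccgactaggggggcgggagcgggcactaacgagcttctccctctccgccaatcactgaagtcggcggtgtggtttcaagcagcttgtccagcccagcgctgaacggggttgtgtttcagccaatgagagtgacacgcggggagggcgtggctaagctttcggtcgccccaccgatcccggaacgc
Ifih1 (chr2:62646206-62646505, minus strand): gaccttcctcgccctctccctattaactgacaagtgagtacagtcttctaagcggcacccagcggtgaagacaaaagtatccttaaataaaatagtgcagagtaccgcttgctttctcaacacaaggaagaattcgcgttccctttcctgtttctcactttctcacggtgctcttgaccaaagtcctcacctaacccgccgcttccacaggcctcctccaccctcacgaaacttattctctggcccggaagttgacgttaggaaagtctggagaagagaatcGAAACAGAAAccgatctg
Oas3 (chr5:120777610-120777909, minus strand): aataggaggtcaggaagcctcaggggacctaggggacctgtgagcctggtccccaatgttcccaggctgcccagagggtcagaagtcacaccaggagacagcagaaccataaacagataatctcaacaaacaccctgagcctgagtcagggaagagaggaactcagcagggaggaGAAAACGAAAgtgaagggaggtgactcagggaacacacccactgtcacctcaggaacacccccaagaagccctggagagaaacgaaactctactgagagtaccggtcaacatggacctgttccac
Ifit1 (chr19:34640639-34640938, plus strand): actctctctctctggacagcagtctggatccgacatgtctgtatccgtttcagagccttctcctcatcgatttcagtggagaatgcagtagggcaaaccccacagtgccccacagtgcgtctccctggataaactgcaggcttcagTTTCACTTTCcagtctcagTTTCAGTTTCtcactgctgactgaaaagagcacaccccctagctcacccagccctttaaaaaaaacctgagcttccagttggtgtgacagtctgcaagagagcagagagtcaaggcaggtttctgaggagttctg
The Isg15 window held 3 overlapping matches, which begin at −78, −72 and −66 from the start, and Isg15 differed by 0.92. Stat2 held 1 match at −222 and Ifih1 1 match at 32, after the start. Ifit1 held 2 matches and differed by 0.47. Oas3 held 1 and differed by −0.49. A match of letters is a description and shows no binding. Windows were not given for Usp18, Rtp4 and Mx2, and the Irf9 windows held no match to these letters.

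The 3 receptors had a median difference of 0.36. Ifnar1, the chain of the type I receptor that pairs with Tyk2, read 7.50, 7.53 and 7.57 on the EGFP-high arrays, against 7.59, 7.54 and 7.54 on the EGFP-low arrays. The groups overlapped and the difference was −0.02 (−0.47 to 0.43). Ifnar2, the other chain, read 8.88, 8.85 and 8.82 in EGFP-high cells, against 8.46, 8.70 and 8.30 in EGFP-low cells. The groups did not overlap, and the difference was 0.36 (−0.14 to 0.86). Ifngr1 had 6.97, 6.80 and 6.63 in EGFP-high cells, against 6.23, 6.53 and 6.45 in EGFP-low cells. Its difference of 0.39 (−0.12 to 0.91) was 0.73 between EGFP-high 1 and EGFP-low 1 and 0.14 between EGFP-high 3 and EGFP-low 2 and 3.

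All 4 transcription factors read higher on every EGFP-high array than on any EGFP-low array, as did 19.3% of all genes. Stat2, the STAT particular to type I and III signalling, read 6.04, 6.15 and 6.27 in EGFP-high cells, against 5.55, 4.74 and 6.01 in EGFP-low cells. Its difference of 0.72 had a wide interval (−0.12 to 1.57), and EGFP-low array 2 stood apart at the low end. Irf9, its DNA-binding partner, read 5.84, 5.85 and 5.86 in EGFP-high cells, against 5.23, 5.27 and 5.16 in EGFP-low cells. The arrays of each group lay close together, and the difference was 0.63 (0.17 to 1.09). Irf7, which drives transcription of type I interferon genes, had 6.03, 5.995 and 5.96 in EGFP-high cells, against 5.40, 5.22 and 5.67 in EGFP-low cells, a difference of 0.56 (0.05 to 1.08). Irf1, an early target of interferon gamma, read 6.21, 6.16 and 6.11 in EGFP-high cells, against 5.68, 5.77 and 5.75 in EGFP-low cells, with a difference of 0.43 (−0.03 to 0.89).

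The 2 members with the largest differences, Usp18 and Isg15, both belong to the conjugation of ISG15. Usp18 is the protease that takes ISG15 off its targets and also restrains signalling at the type I receptor. It read 4.66, 4.84 and 5.02 in EGFP-high cells, against 3.88, 3.45 and 3.79 in EGFP-low cells. Every EGFP-high array lay above every EGFP-low array, and the difference was 1.13 (0.58 to 1.68), a 2.19-fold ratio. EGFP-low arrays 2 and 3 read Usp18 below their own medians over all probe sets. Isg15, a ubiquitin-like protein that is joined to other proteins, read 6.59, 6.66 and 6.73 in EGFP-high cells, against 5.81, 5.45 and 5.96 in EGFP-low cells. Its difference was 0.92 (0.38 to 1.46), or 1.89-fold. Herc6, the main ISG15 ligase of mice, had 7.30, 7.17 and 7.04 in EGFP-high cells, against 6.75, 6.90 and 7.001 in EGFP-low cells. The groups nearly touched, and the difference was 0.28 (−0.21 to 0.77). In the authors' deposited table the ratio of high over low was 1.999 for Usp18 and 1.98 for Isg15.

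The nucleic acid sensors were mixed. Ifih1 (MDA5), a sensor of long double-stranded RNA, read 6.48, 6.52 and 6.57 in EGFP-high cells, against 6.07, 5.79 and 6.22 in EGFP-low cells, and differed by 0.50 (−0.02 to 1.01). Eif2ak2 (PKR), a kinase that halts translation on binding double-stranded RNA, had 5.55, 5.63 and 5.71 in EGFP-high cells, against 5.45, 5.33 and 5.34 in EGFP-low cells, a difference of 0.26 (−0.21 to 0.72). Zbp1, a sensor of Z-form nucleic acid, read 3.64, 3.68 and 3.71 in EGFP-high cells, against 3.65, 3.46 and 3.72 in EGFP-low cells. It overlapped between the groups, with a difference of 0.07. The ubiquitin ligase Trim25 (0.02) and the helicase Dhx58 (−0.02), a regulator of RNA sensing, overlapped as well.

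The 3 IFIT genes, whose proteins bind viral RNA, did not share a direction. Ifit2 read 4.25, 4.19 and 4.12 in EGFP-high cells, against 3.54, 3.43 and 3.85 in EGFP-low cells, with no overlap and a difference of 0.58 (0.07 to 1.095). The authors' deposited table gives Ifit2 a ratio of 1.89, where the value table gives 1.495. Ifit1 read 7.42, 6.95 and 6.48 in EGFP-high cells, against 6.01, 6.72 and 6.70 in EGFP-low cells. Its difference of 0.47 (−0.34 to 1.28) rested on one pair of arrays: it was 1.41 between EGFP-high 1 and EGFP-low 1 and −0.23 between EGFP-high 3 and EGFP-low 2 and 3. Ifit3 read 5.94, 6.04 and 6.14 in EGFP-high cells, against 6.39, 6.197 and 6.27 in EGFP-low cells, all lower, with a difference of −0.25 (−0.72 to 0.23). Its close paralogue Ifit3b, which is no member, differed by 0.77 (0.28 to 1.25), and how far probes of the 2 genes read each other's transcript was not tested.

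The OAS family, which includes the enzymes that make the short oligoadenylates that activate RNase L, was split. Oas2 had 5.73, 5.55 and 5.37 in EGFP-high cells, against 4.98, 5.198 and 5.31 in EGFP-low cells, and Oasl2 had 8.39, 8.38 and 8.38, against 8.07, 8.24 and 7.91. They differed by 0.39 (−0.14 to 0.91) and 0.31 (−0.18 to 0.79). Oas3 read 2.94, 2.72 and 2.51 in EGFP-high cells, against 3.0002, 3.34 and 3.31 in EGFP-low cells. It was the member with the most negative difference, −0.49 (−1.04 to 0.05), and is dim. Oasl1, which limits Irf7 protein in mice, differed by −0.02.

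Among the 8 other antiviral effectors, 7 differed by more than 0. Mx2, a cytoplasmic GTPase in mice, read 4.605, 4.49 and 4.37 in EGFP-high cells, against 3.59, 3.28 and 4.24 in EGFP-low cells. The groups did not overlap, although EGFP-low 3 came close to EGFP-high 3, and the difference was 0.78 (0.07 to 1.49). Ifitm3, which blocks virus entry from endosomes, had 9.65, 9.58 and 9.50 in EGFP-high cells, against 9.08, 9.08 and 9.30 in EGFP-low cells, a difference of 0.42 (−0.06 to 0.90). Isg20, an RNA exonuclease, read 6.60, 6.77 and 6.94 in EGFP-high cells, against 6.56, 5.93 and 6.67 in EGFP-low cells, and overlapped at a difference of 0.38 (−0.27 to 1.04). The dNTP hydrolase Samhd1 (0.31) did not overlap between the groups. Mx1 (0.23), the virus tether Bst2 (0.19) and Rsad2 (viperin, 0.15) overlapped, as did Ifitm1 (−0.16). Oas3, Mx1, Ifitm1 and Zbp1 lay below the median of all probe sets on every array. No detection call came with the values, so a level of such a gene cannot be set apart from background. Mx2 lay below the array median on EGFP-low arrays 1 and 2, and Ifit2 on all 3 EGFP-low arrays, so their EGFP-low levels carry the same limit. With genes of below-median mean brightness left out, 32 members stayed, and 5 of them were higher by 1.5-fold or more (15.6%, against 2.91% of 11090 genes). Mx2, Ifit2 and Dhx58 were among the 7 members left out, with the 4 dim genes above.

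Guanylate binding proteins are GTPases that attack the vacuoles of intracellular microbes. Of the 3 listed, the 2 measured on a probe set of their own overlapped between the groups. Gbp7 read 5.75, 5.65 and 5.55 in EGFP-high cells, against 5.29, 5.64 and 5.25 in EGFP-low cells, with a difference of 0.26 (−0.26 to 0.78). Gbp3 read 5.87, 5.87 and 5.88 in EGFP-high cells, against 5.91, 5.51 and 6.31 in EGFP-low cells, with a difference of −0.04 (−0.66 to 0.59). The spread lay in the EGFP-low arrays. The probe set that Gbp2 shares with Gbp2b, which is outside the counts, did not overlap and differed by 0.71 (0.09 to 1.32).

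All 3 measured PARP genes, encoding ADP-ribosyltransferases, were higher without overlap, as were 19.3% of all genes. Parp12 read 6.67, 6.64 and 6.61 in EGFP-high cells, against 6.03, 6.09 and 6.06 in EGFP-low cells. Both groups were tight, and the difference was 0.58 (0.12 to 1.03). Parp14 had 6.24, 6.19 and 6.15 in EGFP-high cells, against 5.71, 5.47 and 6.09 in EGFP-low cells, a difference of 0.43 (−0.13 to 1.001). Parp9 read 5.202, 5.29 and 5.38 in EGFP-high cells, against 5.15, 5.06 and 4.97 in EGFP-low cells, a difference of 0.23 (−0.24 to 0.70). The probe set shared by Parp9 and its partner Dtx3l differed by 0.24.

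The 4 further induced genes were all higher without overlap, as were 19.3% of all genes. Rtp4, a receptor transporter protein that interferon induces, read 7.63, 7.59 and 7.55 in EGFP-high cells, against 6.69, 6.46 and 7.04 in EGFP-low cells, with a difference of 0.86 (0.31 to 1.42). Xaf1, a pro-apoptotic binding partner of XIAP, had 7.40, 7.48 and 7.55 in EGFP-high cells, against 7.04, 6.48 and 7.38 in EGFP-low cells, a difference of 0.51 (−0.17 to 1.19). Ifi35 read 6.06, 6.19 and 6.31 in EGFP-high cells, against 5.97, 5.77 and 5.79 in EGFP-low cells. Its 2 probe sets both differed upwards, by 0.34 (−0.15 to 0.83) for the brighter and 0.70 (−0.03 to 1.42, over all probe sets) for the dimmer. Ifi27, a small membrane protein, had 9.40 on each EGFP-high array, against 9.08, 9.07 and 9.07 on the EGFP-low arrays, a difference of 0.33 (−0.13 to 0.78).

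**Figure D2:**
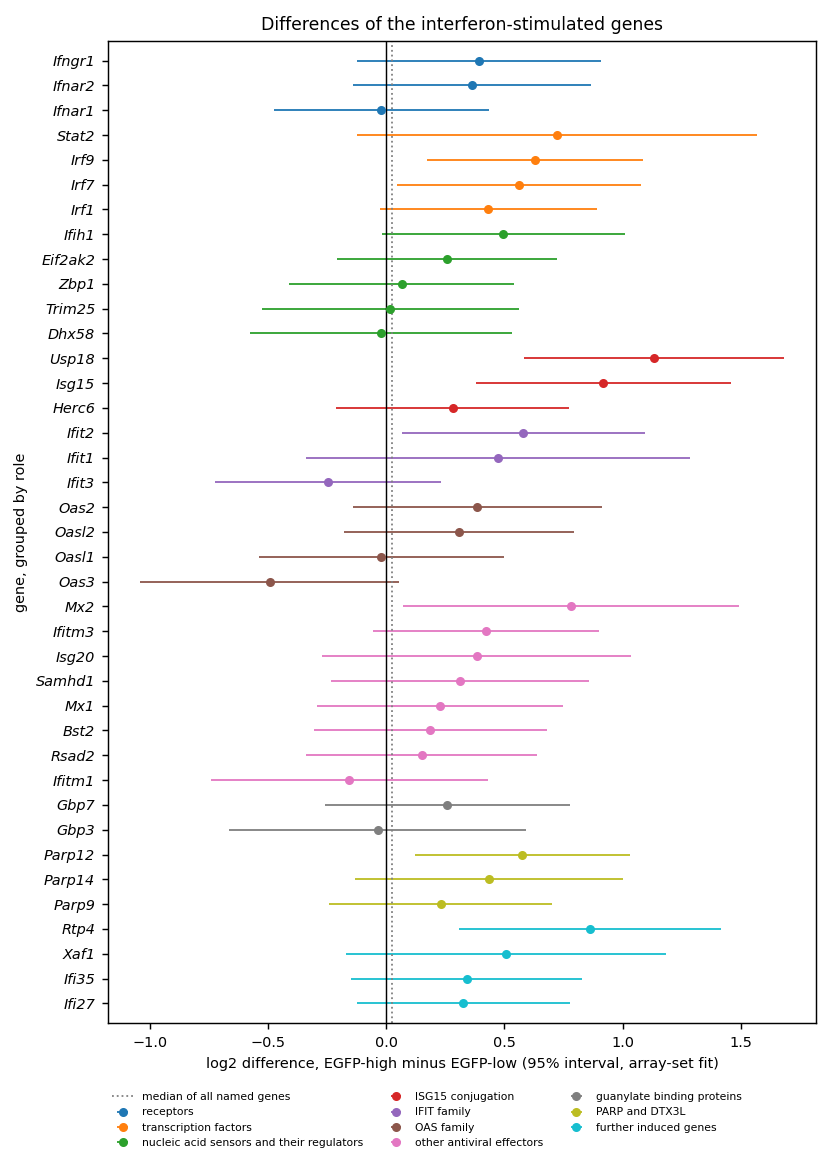
Log2 difference of each member, EGFP-high minus EGFP-low (points), with its 95% interval from the array-set fit (bars, 3 arrays per group), grouped by role. The intervals of 8 members (Irf7, Irf9, Usp18, Isg15, Ifit2, Mx2, Parp12 and Rtp4) lie wholly above 0, and no interval lies wholly below it. That is 20.5% of the members, against 3.04% of all genes above 0 and 2.89% below. The intervals are not adjusted for the number of genes, and 0 members passed the adjusted threshold.

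Across the members the EGFP-high arrays lay wholly above the EGFP-low arrays for 24 genes (61.5%, against 19.3% of all genes) and wholly below for 2, Oas3 and Ifit3 (5.13%, against 13.9%). Since the columns are linked, the share in all genes is the figure to set beside these. Within the inferred array sets, 26 members were above 0 in both contrasts (66.7%, against 31% of all genes) and 3 were below 0 in both (7.69%, against 24.1%). The median of the members was 0.37 for EGFP-high 1 minus EGFP-low 1, and 0.36 for EGFP-high 3 minus the mean of EGFP-low 2 and 3. Usp18 differed by 0.78 and 1.40 in these contrasts, Isg15 by 0.77 and 1.03, and Rtp4 by 0.94 and 0.80. Without EGFP-high 3, 11 members were higher by 1.5-fold or more in place of 6 (28.2%), but so were 6.7% of all genes in place of 2.19%. Without EGFP-low 3 the count was also 11, against 3% of all genes. Without EGFP-high 1 or EGFP-low 1, which is the same fit, it was 8 (20.5%, against 4.83%).

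**Figure D3:**
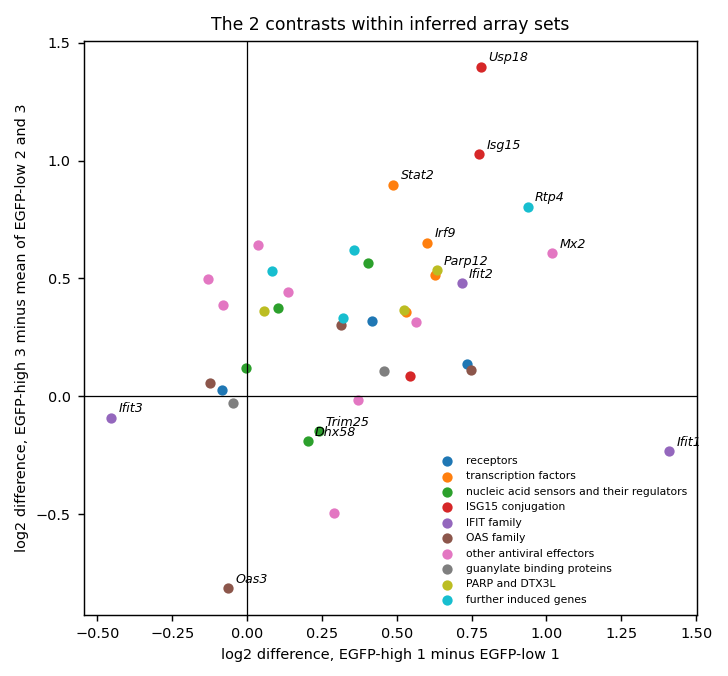
Log2 difference of each member between EGFP-high 1 and EGFP-low 1 (horizontal) and between EGFP-high 3 and the mean of EGFP-low 2 and 3 (vertical), coloured by role. Of the 39 members 26 lie above 0 on both axes, with Usp18, Isg15 and Rtp4 farthest out, and Ifit1 lies at 1.41 and −0.23.

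EGFP-low array 2 was the lowest of its group for 19 of 39 members, against 10 each for EGFP-low arrays 1 and 3. Stat2, Usp18, Isg15, Mx2 and Xaf1 were among these. No count of this kind over all genes is given. EGFP-low array 2 had the largest summed level of 31 leukocyte markers in its group on the linear scale. It was 835.9, against 569.2 and 456.8 on EGFP-low arrays 1 and 3. Its sum was also the largest of the group for surface epithelium markers, 14380, against 13490 and 13590. The same held for endothelial and stromal markers, 1351, against 1115 and 995.5. For luteal and granulosa markers its sum was the lowest, 934.8, against 1247 and 1114. Any tie of these sums to the members was not tested. Without EGFP-low array 2 the members' median difference was 0.32 and 6 were at 1.5-fold or more (15.4%, against 2.93% of all genes). Stat2 then differed by 0.375, Usp18 by 1.005 and Isg15 by 0.774.

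Leukocyte markers mostly read lower in the EGFP-high cells. Of 31 measured leukocyte markers, 25 differed by less than 0, with a median of −0.29. Their summed linear level was 374 to 402 on the EGFP-high arrays, against 457 to 836 on the EGFP-low arrays. The largest differences were in the myeloid genes Lyz2 (−3.77), Tyrobp (−1.81), C1qb (−1.22) and Fcer1g (−1.20). Lyz2 and Tyrobp lay below the array median on all 3 EGFP-high arrays. The 6 markers above 0 were S100a9 (0.56), Ly6d (0.39), Cd4 (0.34), S100a8 (0.12), Cd68 (0.07) and Cd3g (0.06), so myeloid genes did not share a direction. Siglech, a marker of interferon-producing plasmacytoid dendritic cells, differed by −0.53 (−1.0996 to 0.04). It lay below the array median on all 3 EGFP-high arrays and on EGFP-low arrays 1 and 2, so its level is near background. Of the 31 markers, 15 lay below the array median throughout. Surface epithelium markers mostly read higher. Of 21, 20 were above 0 with a median of 0.24, and their summed level was 16310 to 16960 on the EGFP-high arrays, against 13490 to 14380 on the EGFP-low arrays. Of 9 luteal and granulosa markers, 6 were below 0 with a median of −0.65, and their summed level was 671 to 723 on the EGFP-high arrays, against 935 to 1247 on the EGFP-low arrays. Cyp11a1, which starts steroid synthesis from cholesterol, was the 1 gene of 22180 that passed the array-set fit (limma adjusted p = 0.0141). It read 3.68, 4.02 and 4.35 in EGFP-high cells, against 9.09, 8.26 and 8.92 in EGFP-low cells, and fell by 4.74. Cyp11a1 has 2 probe sets, and the brighter is given. With the probe sets of a gene averaged, or with all probe sets tested, 0 of the 22180 genes passed. Hsd3b1, a later enzyme of steroid synthesis, differed by −2.76 (−3.84 to −1.69), and Star by 0.33 (−0.12 to 0.79). Of 15 endothelial and stromal markers, 9 were below 0 with a median of −0.15, and their summed level was 984 to 1034 on the EGFP-high arrays, against 996 to 1351 on the EGFP-low arrays. Among these the collagen gene Col1a2 had the largest difference, −3.08 (−4.10 to −2.06). Col1a2 has 2 probe sets, of which the brighter is given, and it lay below the array median on all 3 EGFP-high arrays. The collagen genes Col1a1 (−0.45) and Col3a1 (−0.35) had intervals that span 0. Thy1 differed by 0.53 (0.03 to 1.03), and lay below the array median on all 3 EGFP-low arrays. The part of these cell type markers in the differences of the interferon-stimulated genes was not tested.

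Other genes of the interferon pathway were described from 4 further lists, in which 0 genes passed the adjusted threshold of the array-set fit. The 61 measured other interferon-induced genes had a median difference of 0.22, with 48 above 0. In the group-only fit 11 of them were past the threshold and higher (18%, against 3.9% of all genes), and 2 were lower (3.28%, against 2.77%). The immunoproteasome subunits Psmb8 (0.92, 0.38 to 1.46) and Psmb9 (0.80, 0.25 to 1.36), the immunity-related GTPase Iigp1 (0.94, 0.31 to 1.57), the RNA helicase Mov10 (0.82, 0.31 to 1.33) and Ifit3b were higher on every EGFP-high array. Ifi204, a DNA-binding protein of myeloid cells, ran the other way (−0.91, −1.52 to −0.30), with means of 1.94 in EGFP-high cells and 2.85 in EGFP-low cells. It lay below the array median on all 6 arrays, so its level cannot be set apart from background.

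Receptor chains, kinases, factors and brakes outside the members had a median of 0.17 over 15 genes, with 12 above 0. Irf2 differed by 0.46 (−0.05 to 0.96), Socs3, a feedback inhibitor of JAK signalling, by 0.40 (−0.05 to 0.85), and Ifnlr1, the interferon lambda receptor, by 0.45 (−0.19 to 1.08). Ptpn2 (0.29), Tyk2 (0.40) and Stat3 (0.19) had intervals that span 0. The 13 measured genes of sensing upstream of interferon had a median of 0.03, with 8 above 0 and 5 below. The endosomal sensing gene Unc93b1 differed by −0.50 (−0.97 to −0.03). Tlr8, which differed by −0.54 (−1.03 to −0.04), had means of 1.63 in EGFP-high cells and 2.17 in EGFP-low cells, below the array median on all 6 arrays, so its level cannot be set apart from background. The adaptors and kinase Ticam1 (0.54), Sting1 (0.61), Mavs (0.45) and Ikbke (0.47) read higher.

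The interferon genes themselves showed no common direction. Over 19 measured ligand genes the median was 0.10, with 11 above 0 and 8 below, and 12 lay below the array median on every array. Ifna4 differed by −0.71 (−1.20 to −0.22) and Ifnab by 0.98 (0.21 to 1.76), a gene with means of 2.97 in EGFP-high cells and 1.98 in EGFP-low cells. Ifna7 (0.38), Ifnl2 (0.37), Ifna1 (0.31) and Ifne (−0.25) had intervals that span 0. Genes of the Ifna family are near-identical, so probes may read several of them. Ifnb1 differed by 0.15 (−0.36 to 0.67) and Ifng by 0.10 (−0.36 to 0.56). Ifnab, Ifne, Ifnb1 and Ifng lay below the array median on all 6 arrays, so their levels cannot be set apart from background. Ifna7 lay below it on all 3 EGFP-low arrays. No difference between any of these lists was tested.

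**Figure D4:**
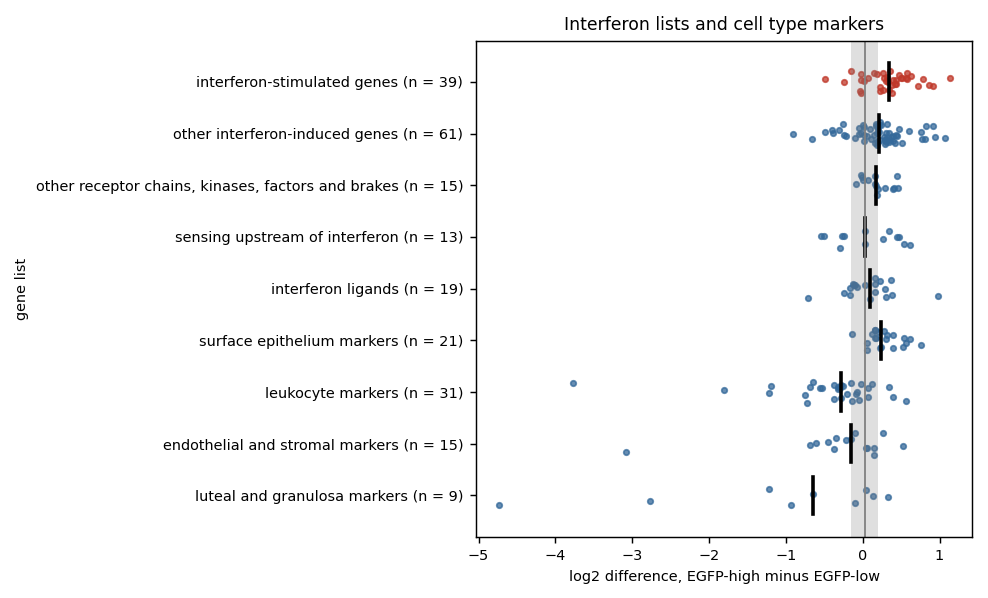
Log2 difference, EGFP-high minus EGFP-low, of each gene (points) in the interferon lists and the cell type marker lists, with the list's median (black bar). The grey band holds the quartile range of all 22180 named genes, from −0.15 to 0.19, and the grey line their median. The interferon-stimulated genes sit mostly right of the band, and the leukocyte markers trail to the left.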

How the data were processed

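Values were log2 expression values that the authors deposited for 41345 probe sets on 6 arrays, made with Affymetrix Expression Console and RMA per the submitters' processing notes; their versions, the genome build and the annotation are not stated there. The authors' deposited table of 1134 probe sets at 1.5-fold or more holds linear ratios of high over low and a signed fold score, per the file headers, with blank p-values. Probe sets with 1 symbol in the platform annotation numbered 23521, those with several 1820 and unlisted ones 16004. The brightest per gene left 22180 genes, with no filter on dim genes.

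EGFP-high minus EGFP-low was tested with limma 3.58.1 in R 4.3.3 (lmFit, eBayes, two-sided, Benjamini-Hochberg over all genes, threshold 0.05) with group and inferred array set as terms, which leaves 2 residual degrees of freedom. The fit was checked on simulated data. With group alone there are 4. EGFP-high 2 equalled the mean of EGFP-high 1 and 3 within 7e-05, and EGFP-low 1 equalled the mean of EGFP-low 2 and 3 plus 0.75 times EGFP-high 3 minus EGFP-high 1 within 0.000125. The number of arrays limits the precision.

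Members, lists and tests were chosen with earlier results of these data known. In each role, up to 3 members with the largest differences get their 6 values, as do all receptors, transcription factors and ISG15 genes. Each other interferon list gives up to 6 genes with the smallest p. Some further genes (Siglech, Cyp11a1, Hsd3b1, Star, Col1a2, Col1a1, Col3a1, Thy1, Ifnb1, Ifng, Parp9 with Dtx3l) were named after their values were seen. So were the 6 leukocyte markers above 0. An exact permutation test of 3 against 3 arrays cannot go below 0.1 and was not used. Alternatives were the terms of the fit, the normalization, a filter on dim genes, the probe sets of a gene, a brightness trend and each array left out.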

Additional observations from a re-analysis of the deposited data

Results flagged for a closer look

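Gbp2 and Ifi44 stand outside the 39 measured members, because the annotation pairs the Gbp2 probe set with Gbp2b too and lists no symbol for the probe set that the authors name Ifi44. Both passed 1.5-fold in the authors' deposited table, with ratios of high over low of 1.62 for Gbp2 and 1.56 for Ifi44. In the value table the Gbp2 and Gbp2b probe set read 8.93, 8.91 and 8.89 in EGFP-high cells, against 8.19, 7.97 and 8.47 in EGFP-low cells, a difference of 0.71 (0.09 to 1.32). The Ifi44 probe set read 6.15, 6.07 and 5.99 in EGFP-high cells, against 5.26, 5.04 and 5.72 in EGFP-low cells, a difference of 0.73 (0.01 to 1.45). The groups overlapped for neither, and both had a limma adjusted p of 0.958 over all probe sets. The probe set of Oas1a and Oas1g differed by 0.06 (−0.83 to 0.95).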

How the results depend on the processing

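Of 14 alternatives, 8 gave differences of their own, and over these 28 of the 39 members kept their sign and 11 did not. The other 6 changed the test or the genes tested but not the differences, or repeated another fit. With group as the only term 9 members passed the threshold, against 0 with the array-set term and 0 in every other alternative. With the replicate number as a block 0 members passed (lowest adjusted p 0.128). Whether the numbers pair the samples could not be checked, because the column relations fix the deviation of EGFP-low 1 as the opposite of that of EGFP-high 1 and leave EGFP-high 2 with none. The median of the members was 0.40 with each array centred on its median, where that of all genes was 0.08. With quantile normalization applied again the medians of members and of all genes were 0.29 and 0.04. Over the 32 members left by the brightness filter the median was 0.37, against 0.10 for all genes left. With the brightness trend removed it was 0.23, against 0.008 for all genes. The cause was not tested. Leaving out single arrays gave medians from 0.32 to 0.37, from 6 to 11 members higher by 1.5-fold or more, and from 0 to 1 lower. Centring turned Ifnar1 to 0.036, Dhx58 to 0.034, Oasl1 to 0.036 and Gbp3 to 0.019. Quantile normalization turned Trim25 to −0.046 and Dhx58 to 0.044, and trend removal turned them to −0.105 and 0.018. Without single arrays, differences ran from −0.083 to 0.027 for Ifnar1, −0.0076 to 0.121 for Zbp1, −0.15 to 0.24 for Trim25, −0.19 to 0.20 for Dhx58, −0.23 to 1.41 for Ifit1, −0.146 to 0.080 for Oasl1, −0.13 to 0.50 for Mx1, −0.081 to 0.39 for Bst2, −0.017 to 0.37 for Rsad2, −0.49 to 0.29 for Ifitm1 and −0.24 to 0.16 for Gbp3. With the array-set term, leaving out EGFP-high 1 or EGFP-low 1 is the same fit.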

Other observations

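The gamma-activated sequence, spelled TTCNNNGAA (the same letters on both strands), was searched for in the same promoter windows after the other results were seen. It stood in 12 of 33 members with a window (36.4%), against 9.55% of 27025 genes. Irf1, Ifnar1 and Ifnar2 held it, and so did Bst2, Eif2ak2, Gbp7, Ifi35, Ifit2, Ifitm3, Isg20, Oas1a and Samhd1. The 11 measured members that held it had a median difference of 0.34, and the 18 that did not had 0.35. Among the other interferon-induced genes, Oas1g differed by 1.07 (0.24 to 1.91) and Lgals3bp, a secreted glycoprotein, by 0.76 (0.22 to 1.30), both chosen after their values were seen. Oas1g lay below the array median on EGFP-low arrays 1 and 2. The probe set that it shares with Oas1a differed by only 0.06 (−0.83 to 0.95).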
